A study of Mus musculus with 9 samples.

Results

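The genes described here code for the subunits of heterotrimeric G proteins and for families of enzymes and brakes that act on their signal. These are adenylyl cyclases, RGS proteins and the products of Pde genes, most of them cyclic nucleotide phosphodiesterases. The genes were chosen by symbol (Gnai, Gnao1, Gnaq, Gnas, Gnaz, Gnal and Gna11 to Gna15, Gnb, Gng, Adcy, Rgs and Pde genes with a number), with no cut on a measured value. Earlier results of these data were known when the choice was made. The symbol pattern took 60 of the 12275 genes listed in either of the deposited tables, 42 of 9872 in the BA vs AV table and 58 of 11820 in the BA vs AP table, and 40 genes were listed in both.

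RNA was sequenced from YFP-positive cells sorted from the amygdala of single mice of the line B6.Cg-Tg(Thy1-YFP)HJrs/J, and all mice carried this transgene. The study picked untreated animals from a larger cohort by their behaviour in a conflict task, as balancing (BA), avoiding (AV) or approaching (AP), with 3 mice each, and took the tissue well after the last test. No age is given in the sources used here. The Thy1 promoter of the transgene is active in pyramidal neurons and, more weakly, in several other kinds of neuron, so that the sorted cells are defined by fluorescence and light scatter. AV replicate 2 was taken out by the authors after a principal component analysis and not used here, so that 2 AV mice stand against 3 BA mice in 1 table, and 3 AP mice against the same 3 BA mice in the other. Each gene has 1 normalized signal per mouse, and the tables were normalized separately, so each comparison was made within its own table.

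A receptor that is activated in the membrane loads GTP onto a G alpha subunit and frees it from the G beta-gamma dimer. Gs and the related Golf stimulate adenylyl cyclases, Gi and Go hold them back, Gq and its relatives open the phospholipase C route, and the beta-gamma dimer acts on ion channels and kinases. RGS proteins speed up GTP hydrolysis and so end the signal, while phosphodiesterases break down cAMP and cGMP. In neurons of the amygdala this machinery sits below the receptors for dopamine, noradrenaline, serotonin and endocannabinoids.

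The tables listed 12 of the 13 G alpha genes that the annotation holds under these symbols, 4 of 5 G beta, 10 of 12 G gamma, 6 of 10 adenylyl cyclase, 12 of 21 RGS and 16 of 23 phosphodiesterase genes. Adcy1, Rgs7, Rgs8, Rgs14, Pde1a and Gng13 were among the genes listed in neither table and were not analysed here. How many reads stand behind a value is unknown for the AV table. In the AP table, where low values lie on steps of 1 read, 3 reads correspond to a level of 4.13 to 5.68, and a gene without reads is listed at 2.

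Markers of the sorted cell type were thin. Of 8 markers of pyramidal and other excitatory neurons, both tables listed Camk2a and Nrgn alone, and Slc17a7 and Slc17a6, the vesicular glutamate transporters, were absent from both, as were Snap25, Syt1, Rbfox3 and Thy1. The summed level of 8 oligodendrocyte markers lay between 193084 and 238711 in BA mice and at 54347 and 83970.3 in AV mice, and all 8 were lower in AV mice, 6 of them past the test described below. The 7 astrocyte markers listed moved the other way, with sums of 9919 to 15503 in BA mice and of 31052 and 60236 in AV mice, as did the 3 microglia markers listed, with 237 to 354 and with 722 and 939. Camk2a and Nrgn summed to 67.1 to 93.0 in BA mice and to 1785 and 3096 in AV mice. These shifts accompany every BA vs AV result below, and their part in them was not tested. In such bulk samples, a change in the number of cells of a type cannot be told apart from a change of RNA per cell.

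Between BA and AV mice a larger share of the members than of the table was altered. With limma on log2(value + 1), fitted across the whole table, and a Benjamini-Hochberg adjusted p under 0.05, 23 of 42 members (54.8%) were called, against 29.7% of all genes. Of these, 17 were up-regulated in AV mice, where 13.6% of all genes were, and 6 were down-regulated, where 16.2% of all genes were. The groups did not overlap for 34 members (81.0%, against 58.9% of all genes), 20 of them higher and 14 lower in AV mice (27.7% and 31.3% of all genes). The median log2 fold change of the members was 0.48, against -0.0259 for all genes. At an unadjusted p under 0.05 from limma there were 28 members (66.7%, against 43.2% of all genes), 19 higher and 9 lower (20.2% and 23.0% of all genes). Centring the libraries on their median left 19 calls, 12 up and 7 down, where 30.7% of all genes were called, as Adcy3, Adcy5, Gna11, Gng7 and Pde4d lost the call and Pde7a gained it. Leaving out BA replicate 1, 2 or 3 left 15, 13 and 16 called members, where 16.1%, 15.4% and 18.0% of all genes were called, and there were 21 without either AV mouse. Then 32.1% or 35.4% of all genes were called, and the single AV mouse left is assumed to vary like the others. Calls that held without each mouse in turn were those of 13 members, Gnal, Gnas, Gnb1, Gng2, Gng3, Gng5, Gng10, Gng11, Adcy2, Rgs3, Pde1c, Pde8a and Pde8b.

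**Figure D1:**
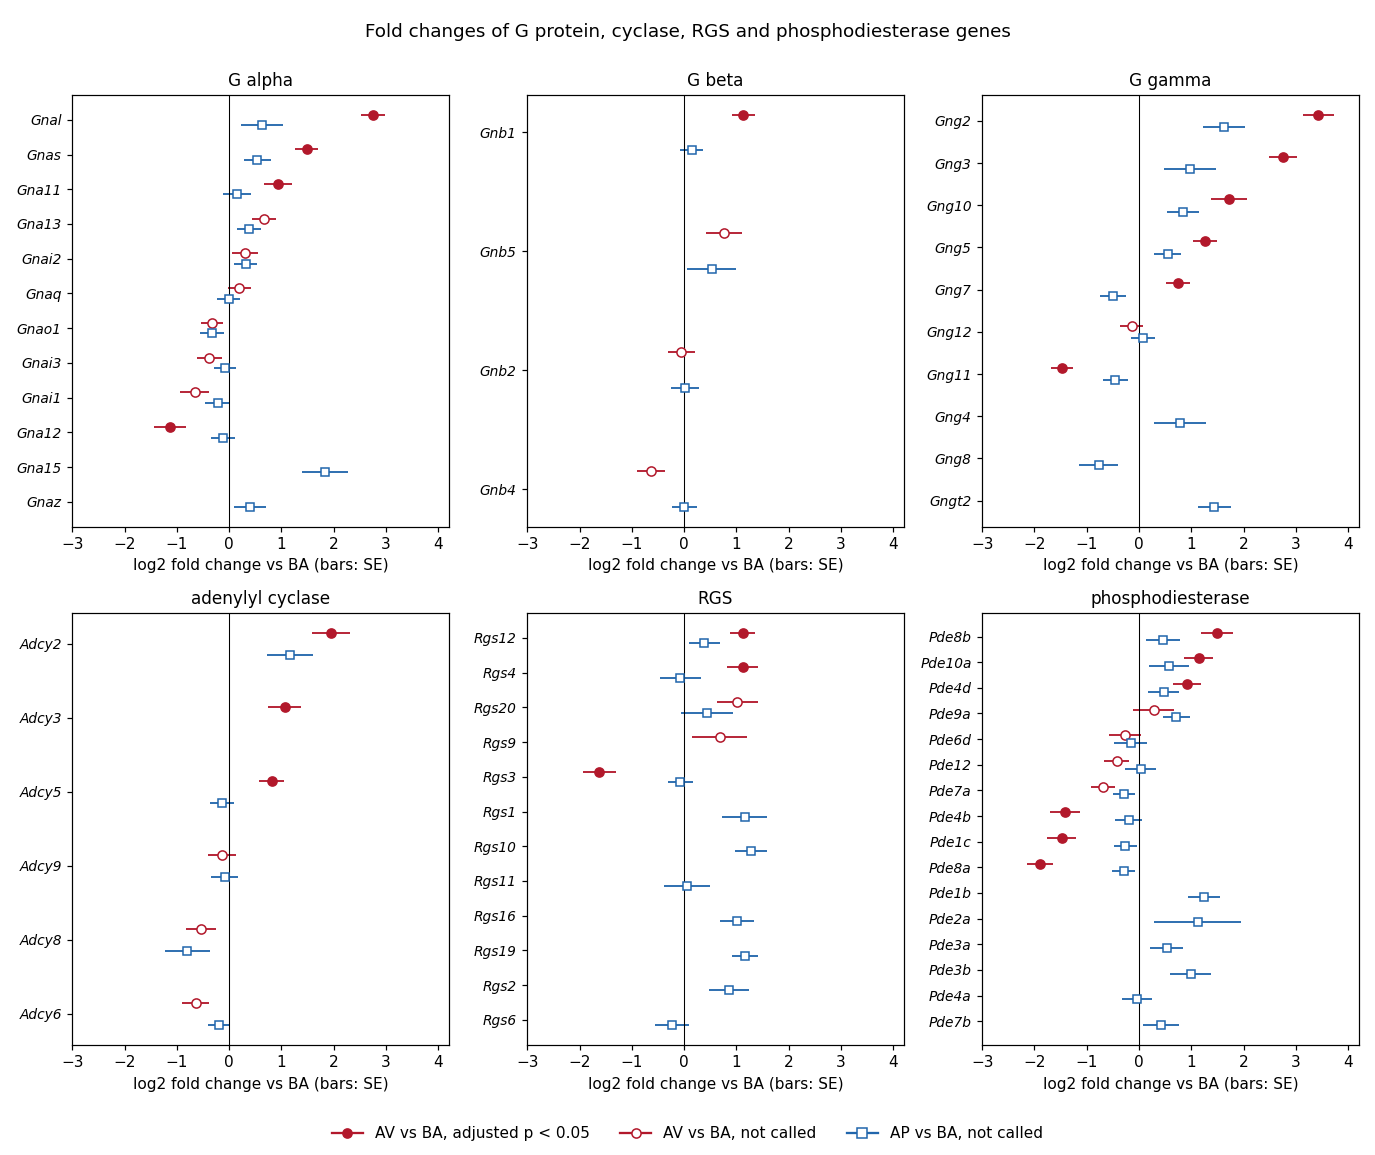
Log2 fold changes against BA mice on the log2(value + 1) scale, with bars for the standard error, for the members of the 6 families. Red circles are AV mice (filled where the limma adjusted p is under 0.05) and blue squares are AP mice, whose members all missed that threshold. The increases of Gng2 (3.43), Gng3 (2.76) and Gnal (2.75) are the largest in AV mice, and the largest decrease is that of Pde8a (-1.90).

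Among the G alpha genes, the stimulatory pair was up-regulated in AV mice. Gnal codes for Golf, the stimulatory subunit of olfactory and striatal neurons. Its value was 39.3, 44.4 and 41.7 in BA mice and 253 and 324 in AV mice, so that the lowest AV mouse lay far above the highest BA mouse. The difference on the log2 scale was 2.75 ± 0.23 (SE), 6.72-fold on that scale, with an adjusted p of 0.00256 from limma. Gnas codes for Gs, the general stimulatory subunit, from an imprinted locus on chromosome 2. It stood at 975, 999 and 826 in BA mice and at 2511 and 2679 in AV mice, again well apart, with a log2 fold change of 1.48 ± 0.22 (SE) and an adjusted p of 0.00513 from limma. Exons of Gnas overlap those of Gm20721 and of the antisense gene Nespas, and exons of Gnal those of Mppe1, all on the opposite strand. Other members, among them Gna12, Adcy2, Rgs12 and Pde8b, also overlap exons of genes on the opposite strand. The setting of strand in counting is not given in the sources used here.

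In absolute terms Gnal remained a minor member. Per kb of exon, it made up 0.155% to 0.176% of the summed G alpha signal in BA mice and 1.26% and 1.45% in AV mice, while Gnas held 3.48% to 3.84% and then 12.6% and 11.9%. The share of Gna12 was 29.2% to 38.4% in BA mice and 14.4% and 21.5% in AV mice. Summed without division by exon length, the G alpha signal overlapped between the groups, at 11733 to 12749 in BA mice and 11578 and 12613 in AV mice. This is not the sum per kb behind the shares, which is not given here.

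Gna12 was the only G alpha gene called lower, with values of 2988, 2453 and 2115 in BA mice and of 879 and 1476 in AV mice. Its difference of -1.13 ± 0.30 (SE) on the log2 scale had an adjusted p of 0.0313 from limma, and the call was lost whichever BA mouse was left out, and without AV replicate 1. Gna13, its closest relative, had values of 589 to 654 in BA mice and of 843 and 1146 in AV mice, and was not called (0.66 ± 0.23, SE, adjusted p 0.0744 from limma). The ratio of Gna13 to Gna12 per kb was 0.105 to 0.165 in BA mice and 0.510 and 0.413 in AV mice. These pairs of relatives were picked after their values were seen, so their ratios are given as a description.

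Gna11, a member of the Gq class, was called higher, with 193, 215 and 135 in BA mice and 346 and 334 in AV mice (log2 fold change 0.94 ± 0.27, SE). The adjusted p was 0.0386 from limma, and the gene lost the call whichever BA mouse was left out, and without AV replicate 1. Gnaq itself had a log2 fold change of 0.19 ± 0.22 (SE), with values of 795 to 1019 and of 1023 and 1070.1. None of the Gi and Go genes was called. Gnai2 had a log2 fold change of 0.30, Gnao1 of -0.33, Gnai3 of -0.38 and Gnai1 of -0.66, with limma adjusted p between 0.118 and 0.395. Gnai1 was called lower with a variance prior that follows expression, and without AV replicate 1 (adjusted p 0.0441 from limma). Gnao1, the G alpha subunit of the neuronal Go protein, had 4672 to 4918 in BA mice and 3898 and 3757 in AV mice.

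G beta subunits form the tight dimer with G gamma. Gnb1 was the one G beta gene called, with 956, 1103 and 1035 in BA mice and 2487 and 2039 in AV mice. The log2 fold change was 1.13 ± 0.22 (SE), at an adjusted p of 0.0115 from limma. Its share of the G beta signal per kb went from 65.6% to 73.9% in BA mice to 84.8% and 82.5% in AV mice. Gnb4 had 343 to 517 and then 271 and 236 (log2 fold change -0.64, adjusted p 0.111 from limma), and the ratio of Gnb1 to Gnb4 per kb was 5.95 to 9.40 in BA mice and 27.3 and 25.7 in AV mice. Gnb2 differed by -0.05 and changed sign without BA replicate 1 or AV replicate 1. Gnb5, which pairs with the RGS proteins of the R7 class rather than with a G gamma subunit, had a log2 fold change of 0.76 ± 0.35 (SE), and its groups overlapped.

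G gamma was the family with the highest share of calls, 6 of 7 listed genes, where 29.7% of all genes were called. G gamma subunits anchor the dimer in the membrane through a lipid on the cysteine of a C-terminal CaaX box, and the last residue of the box sets the lipid: leucine directs a geranylgeranyl group, serine a farnesyl group. The coding ends of the listed G gamma genes are shown for that reason, from the cysteine codon to the stop codon, 5′ to 3′ on the coding strand of the GENCODE M21 annotation of GRCm38, with the codon of the last residue in capitals. The first 7 genes are those of the BA vs AV table, in the order of their fold change, and Gng4, Gng8 and Gngt2 were listed in the BA vs AP table alone.
Gng2: tgcgccatcCTTtaa
Gng3: tgtgcgctcCTCtga
Gng10: tgtgctctaCTTtga
Gng5: tgctcctttTTGtag
Gng7: tgcataattCTCtag
Gng12: tgcatcatcTTAtag
Gng11: tgtgtcattTCAtaa
Gng4: tgcaccatcCTCtaa
Gng8: tgcaccctgCTCtga
Gngt2: tgtgtgctaAGCtga
The capitals spell leucine in 8 of the 10 genes and serine in Gng11 and Gngt2. All 5 genes called higher in AV mice end in leucine, and the 1 called lower, Gng11, ends in serine. Gng12, which ends in leucine, was not called (-0.14 ± 0.22, SE). Gng11 is the only gene of the BA vs AV table that ends in serine, so a link between lipid and direction was not tested. Gngt2, which also ends in serine, was higher in AP than in BA mice, from low values. Its difference was 1.44 ± 0.32 (SE) on the log2 scale, without a call.

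Gng2, the G gamma subunit that is commonly paired with Gnb1, had values of 19.9, 22.5 and 33.6 in BA mice and of 236 and 324 in AV mice. This was a log2 fold change of 3.43 ± 0.30 (SE) with an adjusted p of 0.00278 from limma. Gng3, a subunit of neurons, stood at 21.8, 16.2 and 20.2 and then at 112 and 166 (2.76 ± 0.27, SE, adjusted p 0.00288 from limma). For both, no AV mouse came near the BA mice. Gng10 had 38.0, 23.6 and 33.8 in BA mice and 78.4 and 140.3 in AV mice, and its log2 fold change was 1.72 ± 0.34 (SE), but it shares exon sequence with Gm20503 on the same strand, so its value is uncertain. Gng5 and Gng7 were called as well, at 1.27 and 0.75. Gng7, the usual partner of Golf in striatal neurons, lost its call whichever mouse was left out.

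Gng11 moved against the others, with 160.2, 134 and 148 in BA mice and 53.2 and 51.1 in AV mice. The log2 fold change was -1.48 ± 0.21 (SE), at an adjusted p of 0.00503 from limma. Per kb of exon, Gng11 made up 26.6% to 32.5% of the G gamma signal in BA mice and 8.96% and 7.45% in AV mice. Gng2 and Gng3 were small in BA mice, at 0.845% to 1.48% for Gng2 and 1.80% to 2.48% for Gng3, and reached 8.30% and 9.88% for Gng2 and 10.6% and 13.5% for Gng3 in AV mice. Gng12 was the largest member in BA mice, with 37.3% to 45.2%, and in AV mice, with 31.8% and 26.3%. Exons of Gng3 and of Gng2 overlap those of Bscl2 and Gm48283 on the opposite strand.

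**Figure D2:**
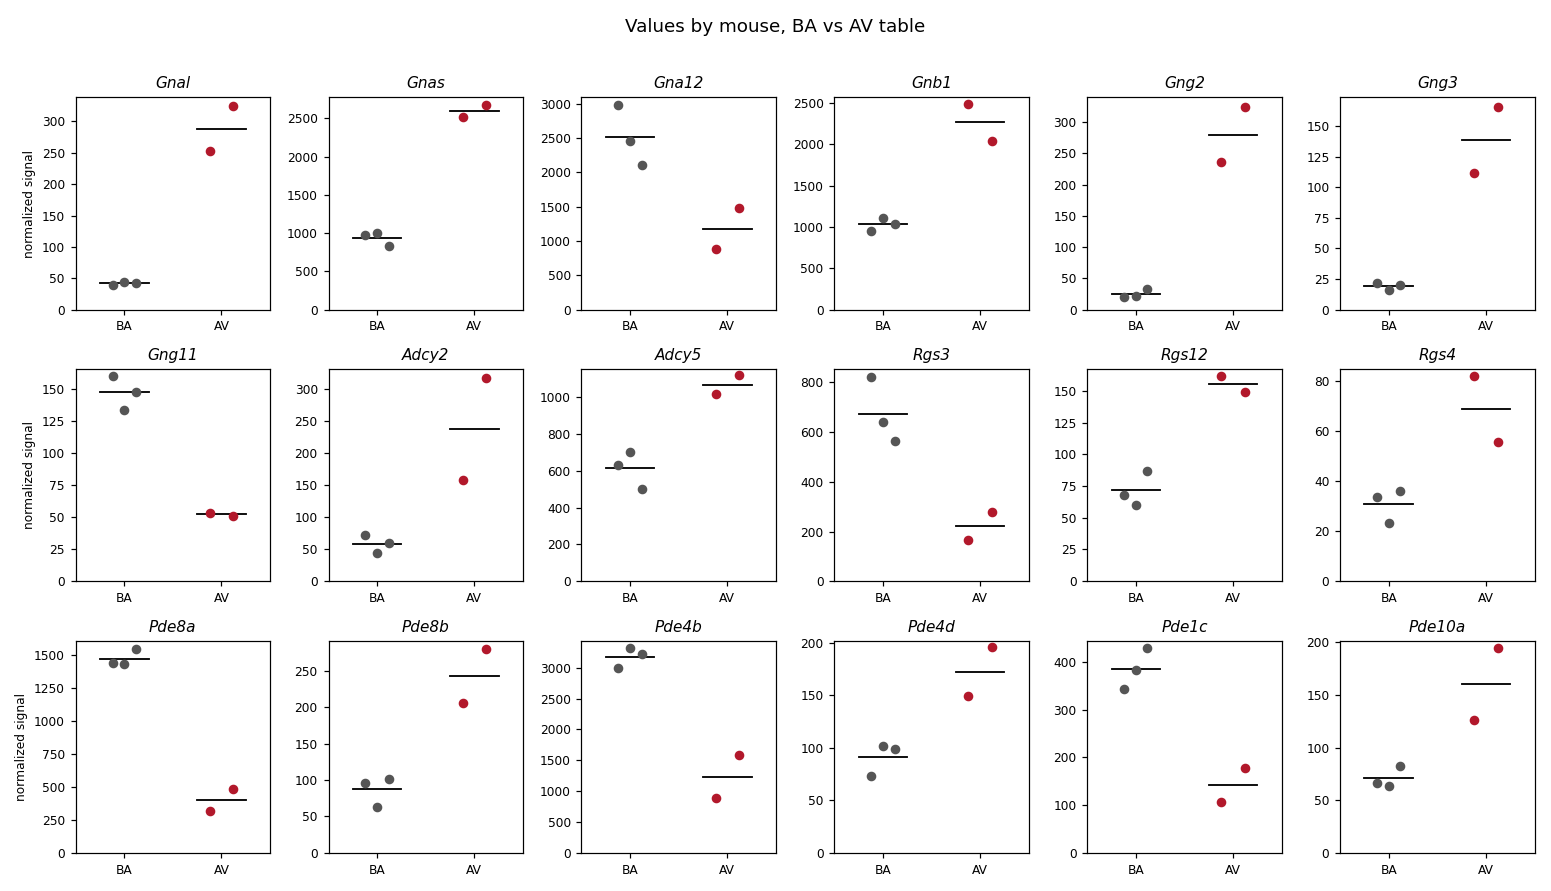
Normalized signal (vertical axis, linear from 0) of 18 members in each BA mouse (grey, 3 points) and each AV mouse (red, 2 points) of the BA vs AV table, with a line at the group mean. The groups do not overlap in any panel: the AV mice lie above the BA mice for Gnal, Gnas, Gnb1, Gng2, Gng3, Adcy2, Adcy5, Rgs4, Rgs12, Pde4d, Pde8b and Pde10a, and below them for Gna12, Gng11, Rgs3, Pde1c, Pde4b and Pde8a.

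Adenylyl cyclases make cAMP from ATP, and their isoforms differ in how calcium, Gi and beta-gamma act on them. Adcy2, an isoform that beta-gamma stimulates in the presence of Gs, was up-regulated, with 71.6, 44.8 and 59.7 in BA mice and 159 and 318 in AV mice. The difference was 1.95 ± 0.36 (SE) on the log2 scale, at an adjusted p of 0.00937 from limma. The 2 AV mice differed from each other by more than the BA mice did. Adcy5, the main cyclase of striatum and heart, which calcium and Gi inhibit, was by far the largest member per kb, at 52.8% to 58.4% of the cyclase signal in BA mice and 62.3% and 54.8% in AV mice. It had 633, 703 and 503 in BA mice and 1016 and 1122 in AV mice (0.81 ± 0.24, SE, adjusted p 0.0430 from limma), and lost the call whichever mouse was left out.

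Adcy3, known from olfactory neurons and from neuronal cilia, was listed in the BA vs AV table alone. It had 49.0, 26.3 and 26.5 in BA mice and 63.7 and 74.2 in AV mice (1.06 ± 0.32, SE, adjusted p 0.0486 from limma), and the call was lost without BA replicate 2, BA replicate 3 or AV replicate 3. Its exons overlap those of Cenpo on the opposite strand. Adcy6, the closest relative of Adcy5, had 143, 109 and 115 and then 64.2 and 94.0, with a log2 fold change of -0.64 ± 0.26 (SE) that missed the threshold (adjusted p 0.111 from limma). The ratio of Adcy5 to Adcy6 per kb was 4.12 to 6.10 in BA mice and 14.9 and 11.3 in AV mice. Adcy8, which calcium and calmodulin stimulate, and Adcy9 had log2 fold changes of -0.54 and -0.14 and were not called.

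Of the RGS genes, 5 were listed in the BA vs AV table and 3 were called, where 29.7% of all genes were called. Rgs3, which ends the signals of Gi and Gq, was the largest member in BA mice, with 57.3% to 65.4% of the RGS signal per kb, and had 17.6% and 25.1% in AV mice. Its value was 821, 639 and 563 in BA mice and 165 and 280.3 in AV mice. This was a log2 fold change of -1.62 ± 0.31 (SE) with an adjusted p of 0.0104 from limma. Rgs4, a small RGS protein of cortical neurons that acts on Gi and Gq, had 33.8, 23.4 and 35.9 and then 81.9 and 55.6 (1.12 ± 0.29, SE, adjusted p 0.0291 from limma), and lost the call without each BA mouse and without AV replicate 1. Rgs12, which also carries a GoLoco motif that binds inactive Gi, had 67.9, 60.4 and 86.8 and then 162 and 149 (1.12 ± 0.24, SE, adjusted p 0.0158 from limma), and lost the call without BA replicate 1 or 2. The ratio of Rgs4 to Rgs3 per kb was 0.128 to 0.222 in BA mice and 1.73 and 0.692 in AV mice. Rgs20 and Rgs9 had log2 fold changes of 1.02 and 0.68, with adjusted p of 0.0891 and 0.355 from limma.

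Phosphodiesterases split by isoform within the same subfamily. Pde8a and Pde8b code for the cAMP-specific, high-affinity enzymes that the common inhibitor IBMX does not block. Pde8a had 1441, 1427 and 1546 in BA mice and 319 and 483 in AV mice. Its log2 change was -1.90 ± 0.25 (SE), 3.74-fold lower, with an adjusted p of 0.00408 from limma. Pde8b had 96.7, 63.0 and 102 in BA mice and 206 and 281 in AV mice. This was a log2 fold change of 1.49 ± 0.30 (SE) with an adjusted p of 0.0121 from limma. The ratio of Pde8b to Pde8a per kb was 0.0462, 0.0304 and 0.0453 in the BA mice and 0.444 and 0.400 in the AV mice, so that Pde8a stayed the larger of the pair in every mouse.

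The PDE4 enzymes, which are also specific for cAMP, showed the same split. Pde4b stood at 2995, 3319 and 3225 in BA mice and at 887 and 1582 in AV mice (-1.42 ± 0.29, SE, adjusted p 0.0133 from limma), and lost the call without BA replicate 2 alone. Pde4d stood at 73.0, 102 and 98.7 and then at 149 and 196 (0.92 ± 0.26, SE, adjusted p 0.0379 from limma), and lost it whichever BA mouse was left out, and without AV replicate 3. The ratio of Pde4d to Pde4b per kb was 0.0214 to 0.0270 in BA mice and 0.148 and 0.109 in AV mice.

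Pde10a, an enzyme for cAMP and cGMP that is best known from striatal projection neurons, had 66.8, 63.8 and 82.8 in BA mice and 126 and 195 in AV mice (1.14 ± 0.27, SE, adjusted p 0.0223 from limma), and lost the call without BA replicate 1 or 2 or AV replicate 3. Of 8 markers of striatal projection neurons, among them Drd1, Drd2, Adora2a and Ppp1r1b, the BA vs AV table listed none. The BA vs AP table listed Penk alone. General neuron markers such as Snap25 and Syt1 were not listed either, and the cell source of Pde10a was not tested. Pde1c, a calcium and calmodulin dependent enzyme, had 344, 383 and 429 and then 106 and 177 (-1.48 ± 0.28, SE, adjusted p 0.0106 from limma). Pde7a (-0.69, adjusted p 0.0652), Pde12 (-0.43), Pde6d (-0.27) and Pde9a (0.28) were not called by limma. Pde12 and Pde6d are counted in the family by symbol, although their products are not cyclic nucleotide phosphodiesterases. Summed without division by exon length, the phosphodiesterase signal was 5605 to 6144 in BA mice and 2256 and 3376 in AV mice. Per kb of exon, Pde8a and Pde4b together held most of the family signal in BA mice, with 41.5% to 44.5% and 34.8% to 36.9%.

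**Figure D3:**
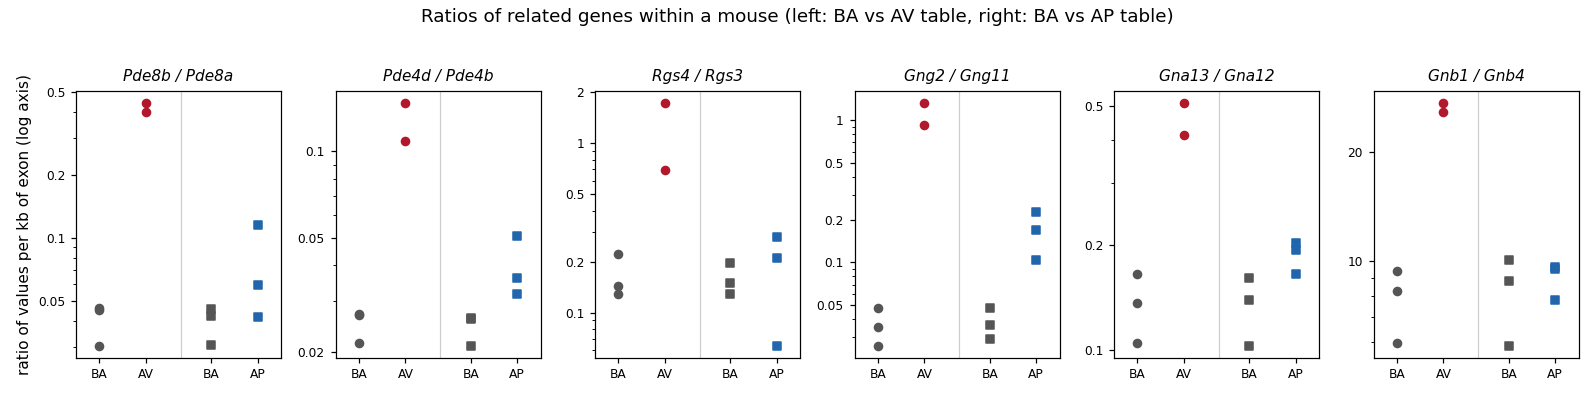
Ratios of the values per kb of exon (vertical axes, logarithmic) of 6 pairs of related genes in every mouse, with the BA vs AV table on the left of each panel (circles) and the BA vs AP table on the right (squares). BA mice are grey, AV mice red and AP mice blue. In AV mice all 6 ratios lie above those of the BA mice, as for Pde8b to Pde8a with 0.444 and 0.400, while the ratios of AP mice overlap those of BA mice for Pde8b to Pde8a, Rgs4 to Rgs3 and Gnb1 to Gnb4.

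Genes next to the members in the pathway were mixed in direction between BA and AV mice. Of 15 listed cAMP effectors, 3 were called higher and 2 lower by limma, where 13.6% and 16.2% of all genes were, so that the share called was close to that of the table (29.7%). Pkia, an inhibitor of protein kinase A, rose by 2.31, Rapgef4 (Epac2), a cAMP-gated exchange factor for Rap, by 2.25 and the CREB coactivator gene Crtc1 by 1.21, all as log2 fold changes, while Pkib had -1.06 and Crtc2 -1.42. The catalytic subunit genes Prkaca and Prkacb had 0.61 and -0.16 and were not called. Of 11 genes for anchoring proteins of protein kinase A, 3 were called higher and 2 lower, and of 4 listed genes of cGMP synthesis, the guanylyl cyclase subunits Gucy1a1 (1.36) and Gucy1b1 (1.10) were called higher and the natriuretic peptide receptor Npr1 (-2.61) lower. The calls of Pkia, Rapgef4, Crtc2 and the anchoring protein gene Akap8 held without each mouse in turn. Those of Crtc1 and Pkib, of the other anchoring protein genes and of all 3 cGMP genes were lost without at least 1 mouse, Npr1 and Gucy1b1 without any of the BA mice.

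Of 19 listed chaperones, RGS partners, receptor kinases and arrestins, 6 were called higher and 3 lower, against the same shares of 13.6% and 16.2% of all genes. Rgs7bp, the membrane anchor of the R7 class of RGS proteins, had 81.4, 82.1 and 67.7 in BA mice and 458 and 416 in AV mice, and its log2 fold change was 2.49. Grk2, a kinase that beta-gamma recruits to active receptors, had 2.07, Arrb1 1.99, Arrb2 1.07, Grk5 1.45 and Gpr158 1.58, whereas Grk4 had -1.37, Gpsm2 -1.02 and Gpr179 -1.91. Arrb2, Grk5, Grk4, Gpsm2 and Gpr179 lost the call without at least 1 BA mouse. The prenyltransferase genes that attach the lipids of the G gamma subunits, Fnta, Fntb and Pggt1b, had -0.51, -0.65 and -0.43 and were not called. Of 11 other effectors of G proteins, 4 were called higher and none lower, where 13.6% of all genes were called higher: Kcnj3, a potassium channel that beta-gamma opens, at 3.43, the exchange factors Kalrn and Prex2 at 2.38 and 1.31, and the phospholipase Plcb1 at 1.22. Prex2 lost the call without BA replicate 1, BA replicate 2 or AV replicate 3. At an unadjusted p under 0.05 from limma, 6 of these 11 were higher, where 20.2% of all genes were, and 0 lower.

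Between BA and AP mice, 0 of the 58 listed members were called by limma at an adjusted p under 0.05, where 1 gene of the table, 0.00846%, was. At an unadjusted p under 0.05, 12 members (20.7%) stood out against 7.77% of all genes, and each of the 12 was higher in AP mice, where 4.99% of all genes were higher and 2.77% lower. The groups did not overlap for 16 members (27.6%, against 12.1% of all genes), 13 of them higher and 3 lower, where 5.64% and 6.45% of all genes were. The median log2 fold change of the members was 0.34, against -0.0323 for all genes, and it was 0.14 without AP replicate 2. Leaving out each mouse in turn also gave 0 called members.

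The 12 genes were Gna15, Gng2, Gng10, Gngt2, Adcy2, Rgs1, Rgs10, Rgs16, Rgs19, Pde1b, Pde3b and Pde9a. Gna15 codes for a promiscuous G alpha subunit of the Gq class that is known from blood cells. Its value was 7.33, 6.10 and 22.8 in BA mice and 39.5, 32.5 and 45.3 in AP mice, so that the highest BA mouse stayed below the lowest AP mouse, with a log2 fold change of 1.83 ± 0.44 (SE) and an adjusted p of 0.347 from limma.

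Gngt2, the farnesylated subunit shown above, had 2, 5.07 and 4.45 in BA mice, at or under the level of 3 reads, and 12.2, 9.08 and 13.9 in AP mice. The adjusted p from limma was 0.318. Rgs10 and Rgs19, RGS proteins of immune cells and other tissues, had 38.2, 21.5 and 32.6 and then 87.3, 53.7 and 86.3 for Rgs10 (1.28 ± 0.30, SE, adjusted p 0.347 from limma). For Rgs19 they were 13.7, 8.15 and 13.0 and then 24.7, 26.1 and 29.0 (1.16 ± 0.25, SE, adjusted p 0.316 from limma). Rgs1, which lymphoid and microglial cells express, had 11.6, 23.5 and 26.5 and then 78.2, 28.2 and 39.8, and Rgs16 had 8.39, 13.3 and 11.8 and then 36.1, 21.1 and 16.1. In none of these genes did the groups overlap.

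All 10 microglia markers were also higher in AP mice, each with an unadjusted p under 0.05 from limma and with groups that did not overlap, and their summed level was 1451 to 2917 in BA mice and 3912 to 6839 in AP mice. Their part in the differences of the members was not tested. Gna15, Gngt2, Rgs1, Rgs10, Rgs16, Rgs19, Pde1b and Pde3b had values in this table only, and the BA vs AV table did not list them.

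**Figure D4:**
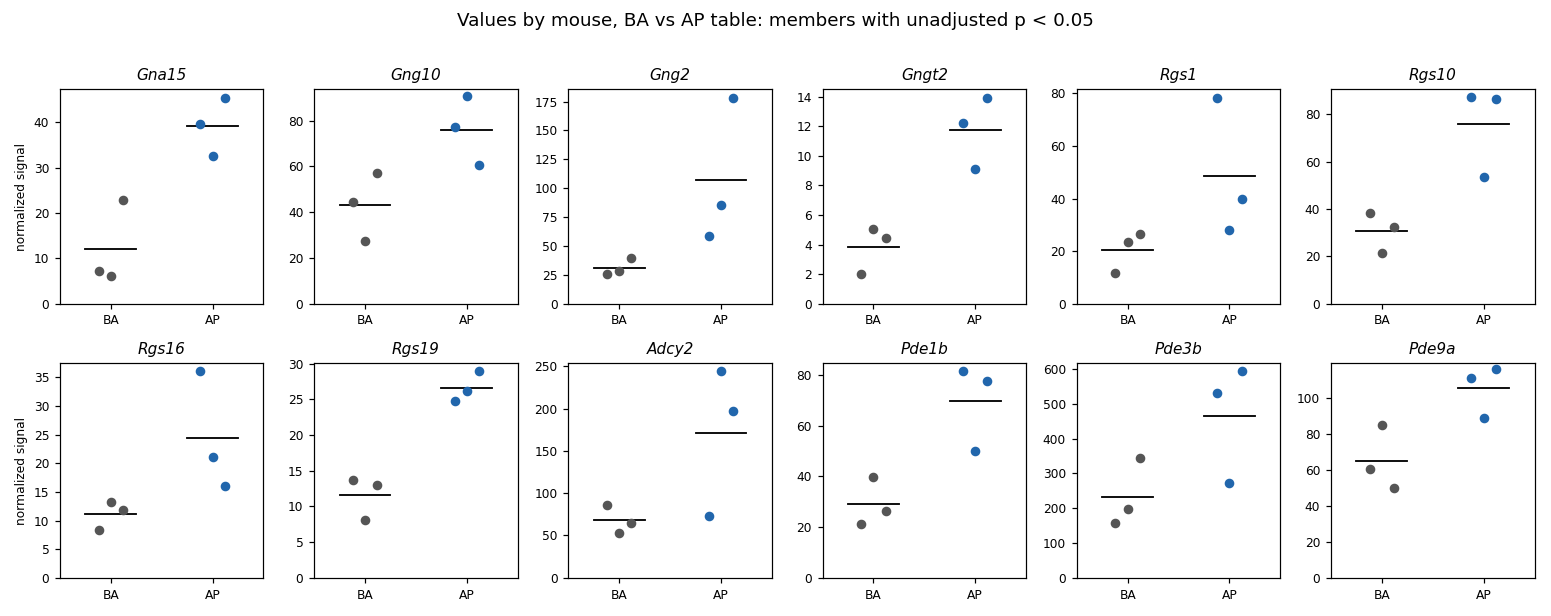
Normalized signal (vertical axis, linear from 0) of the 12 members with an unadjusted p under 0.05 in each BA mouse (grey, 3 points) and each AP mouse (blue, 3 points) of the BA vs AP table, with a line at the group mean. The AP mice lie above the BA mice in every panel but those of Adcy2 and Pde3b, where the lowest AP mouse (72.5 for Adcy2, 272 for Pde3b) lies within the range of the BA mice.

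Phosphodiesterase genes among the 12 were Pde1b, a calcium and calmodulin dependent enzyme, Pde3b, which cGMP inhibits, and Pde9a, which is specific for cGMP. Pde1b had 21.2, 39.9 and 26.5 in BA mice and 81.6, 50.2 and 77.7 in AP mice (1.24 ± 0.31, SE, adjusted p 0.359 from limma). Pde3b had 157, 199 and 345 and then 530.3, 272 and 595, and Pde9a had 60.6, 85.0 and 49.8 and then 111, 89.1 and 116. Pde2a, which cGMP stimulates, had the largest standard error of the family, with 78.7, 119.9 and 69.4 in BA mice and 37.7, 394 and 449 in AP mice (1.12 ± 0.83, SE), and it shares exon sequence with Gm45837 on the same strand. Pde8a had the largest decrease of the family, -0.29 ± 0.22 (SE), with Pde7a next to it at -0.29.

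AP replicate 1 stood apart from the other AP mice in several members. Gnal had 50.0, 58.5 and 48.6 in BA mice and 41.8, 89.1 and 140.4 in AP mice, and Gng3 had 27.6, 19.4 and 21.6 and then 20.2, 46.6 and 99.3. For Gnal, Gng3, Adcy2 and Pde2a the value of AP replicate 1 lay within or below the range of the BA mice, and without this mouse their log2 fold changes were 1.09, 1.55, 1.70 and 2.26 in place of 0.62, 0.98, 1.17 and 1.12. Camk2a was also low in this mouse, with 64.9 to 98.3 in BA mice and 77.0, 843 and 1401 in AP mice. So were astrocyte markers: Slc1a2 had 7658 to 11549 in BA mice and 5919, 37976 and 21831 in AP mice, and the summed level of the 8 astrocyte markers was 12533 to 17502 in BA mice and 9952 to 53054 in AP mice. The part of these markers in the values of the members was not tested. In Gng2, AP replicate 1 was also the lowest AP mouse. Each of the AP values, 58.8, 85.6 and 178, still exceeded those of the BA mice, 25.4, 28.6 and 40.0. The log2 fold change of Gng2 was 1.62 ± 0.40 (SE, adjusted p 0.359 from limma), and 1.97 without AP replicate 1.

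The other G alpha, G beta and cyclase genes had log2 fold changes between -0.80 and 0.54 in AP mice, and none was called. Gnas had a log2 fold change of 0.54 ± 0.26 (SE), Gnaz, a Gi relative that pertussis toxin does not act on, 0.40, Gna13 0.37, Gnai2 0.32, Gna11 0.15, Gnaq -0.01, Gnai3 -0.08, Gna12 -0.12, Gnai1 -0.22 and Gnao1 -0.33. Gnb1 had 0.15 ± 0.22 (SE), Gnb2 0.01, Gnb4 -0.00 and Gnb5 0.53. Adcy5 had -0.14, Adcy6 -0.19, Adcy9 -0.09 and Adcy8 -0.80, for which AP replicate 3, at 18.2, was low against 67.0 to 73.1 in BA mice. Gng8 had the largest decrease of the G gamma genes, -0.77 ± 0.37 (SE), and Rgs6, a member of the R7 class, that of the RGS genes, -0.23 ± 0.33 (SE).

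The comparisons share the 3 BA mice and are therefore given side by side without a test of their difference. Low values also differ in form between the tables, so the numbers of calls may not be comparable. For the members called in AV mice and listed in both tables, the log2 fold change was 2.75 in AV and 0.62 in AP mice for Gnal, 1.48 and 0.54 for Gnas, and 1.13 and 0.15 for Gnb1. It was 3.43 and 1.62 for Gng2, 2.76 and 0.98 for Gng3, and -1.48 and -0.45 for Gng11. For Adcy2 it was 1.95 and 1.17, for Adcy5 0.81 and -0.14 and for Gng7 0.75 and -0.49. Pde8a had -1.90 and -0.29, Pde8b 1.49 and 0.46, Pde4b -1.42 and -0.20, Pde1c -1.48 and -0.26 and Rgs3 -1.62 and -0.07. Gna11 had 0.94 and 0.15, Gna12 -1.13 and -0.12, Gng5 1.27 and 0.55 and Gng10 1.72 and 0.84. Rgs4 had 1.12 and -0.07, Rgs12 1.12 and 0.39, Pde4d 0.92 and 0.47 and Pde10a 1.14 and 0.58. Of the 58 members in the AP table, 0 were called, so that none of these genes passed the test in both comparisons.

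In the lists of pathway genes, likewise, 0 genes were called in AP mice. At an unadjusted p under 0.05 from limma, 0 of the 15 cAMP effectors listed, 0 of the 11 anchoring proteins and 0 of the 9 cGMP genes passed. So did 1 of the 24 chaperones, partners, kinases and arrestins, and 0 of the 10 other effectors. Of all genes, 7.77% passed. Without AP replicate 1, 1 cAMP effector was called.

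Since cAMP acts on transcription through CREB, which binds the element TGACGTCA, the promoters of the members were searched for it. RefSeq windows of 250 bases before a start site on GRCm38.p6 were at hand for 45 of the 60 members, 74 windows in all. The full element was in 0 of the 74 windows and in 1.55% of the 32851 windows of all genes. Its core TGACG, on either strand and without regard to overlap with other motifs, was in 13 member windows (17.6%), and in 17.8% of all windows. The windows of 2 genes up-regulated in AV mice and of the phosphodiesterase with the largest decrease are shown, each 5′ to 3′ on the strand of the gene, with the matches to TGACG or its reverse complement CGTCA in capitals. They are Rgs4 (chr1:169747643-169747892, minus strand), Gnb1 (chr4:155491111-155491360, plus strand) and Pde8a (chr7:81213015-81213264, plus strand).
Rgs4: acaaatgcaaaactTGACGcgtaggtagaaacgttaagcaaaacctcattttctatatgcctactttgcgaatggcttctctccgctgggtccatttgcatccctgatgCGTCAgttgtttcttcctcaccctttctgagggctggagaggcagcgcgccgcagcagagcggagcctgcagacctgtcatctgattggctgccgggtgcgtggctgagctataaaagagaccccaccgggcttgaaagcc
Gnb1: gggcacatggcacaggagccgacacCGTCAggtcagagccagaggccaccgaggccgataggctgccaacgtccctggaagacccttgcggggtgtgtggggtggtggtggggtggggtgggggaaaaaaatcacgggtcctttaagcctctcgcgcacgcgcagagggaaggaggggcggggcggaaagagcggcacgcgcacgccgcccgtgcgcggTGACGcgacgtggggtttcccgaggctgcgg
Pde8a: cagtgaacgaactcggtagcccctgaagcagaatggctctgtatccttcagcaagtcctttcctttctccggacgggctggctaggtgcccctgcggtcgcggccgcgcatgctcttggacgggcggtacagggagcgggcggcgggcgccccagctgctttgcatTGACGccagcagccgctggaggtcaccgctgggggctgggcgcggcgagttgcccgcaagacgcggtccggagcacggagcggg
The core starts 236 and 141 bases before the start site in Rgs4, 225 and 31 bases in Gnb1 and 84 bases in Pde8a. For 42 of the 74 member windows the RefSeq start matched that of a GENCODE transcript. The Pde8a window ends at 81213264, upstream of the GENCODE start of the gene at 81213596, so its distance holds for the RefSeq start alone. A match of these letters is a description of the window and not a binding site. Matches occurred in genes that moved in either direction in AV mice.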

How the data were processed

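Sorted amygdala cells of 9 mice were sequenced by the study as 1 stranded paired-end library per mouse, so replicates are separate mice. The submitters' processing notes name bcl2fastq 2.20, Salmon 1.2 and GRCm38.p6. The deposited values are a normalized signal per gene and mouse. The authors state TMM normalization, a low-count filter and batch correction with ARSyN, without saying whether the last was applied to both tables. Normalized signal has no known depth in the BA vs AV table. In the BA vs AP table, between 80.4% and 89.7% of low values lay on steps of 1 read (tolerance 0.02), too few for a count test. In the BA vs AV table, 10.1% to 28.7% lay on the best step found. The lowest value of a library there was 1.43 to 1.99, against 2.00 in every library of the BA vs AP table. What this difference does to the spread within groups, and so to the calls of each table, was not tested.

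Symbols, coordinates and exon lengths came from GENCODE M21, and promoter windows from RefSeq. Each table was fitted over all rows on log2(value + 1) with limma 3.58.1 in R 4.3.3, without covariates, with Benjamini-Hochberg adjustment at 0.05. The fit was tested on simulated data. Fold changes on this scale understate those of low genes. Members and gene lists were chosen with earlier results of these data known. Named members are all G alpha, G beta and cyclase genes and, per family, up to 3 called members in each direction (BA vs AV, or the largest change where none was called) or the 3 lowest unadjusted p under 0.05 and the extremes (BA vs AP). The other names were chosen after their values were seen. Alternatives were a threshold of 0.01, a minimum mean of 10, a pseudocount of 10, a variance prior that follows expression, centring, a block for the replicate number and each mouse left out. Python 3.11.15, numpy 2.4.6, pandas 2.3.3, scipy 1.17.1 and matplotlib 3.10.9 were used.

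The replicate numbers were checked for pairing through the correlation of same-numbered libraries' deviations from their group means, -0.06 and -0.04 in BA vs AV and 0.02, 0.12 and 0.08 in BA vs AP. They were not treated as pairs.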

Additional observations from a re-analysis of the deposited data

How the results depend on the processing

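Between BA and AV mice, the count of 23 called members stayed within 1.5 times under the filter, the pseudocount of 10, the expression-dependent variance prior and centring (19 to 26). Under these settings 29.6% to 34.8% of all genes were called. The count of members fell to 8 at a limma adjusted p under 0.01, with 2 G alpha, 0 G beta, 4 G gamma, 1 cyclase, 0 RGS and 1 phosphodiesterase gene. At that threshold the lists held 2 cAMP effectors, 1 anchoring protein, 0 cGMP genes, 4 chaperones, partners, kinases and arrestins and 3 other effectors. The share of all genes called at 0.01 was not taken, so these counts stand without a background. The variance prior called 2 G beta genes, and centring 1 cyclase. Leaving out each mouse in turn called 13 to 21 members, with 2 to 4 G alpha, 1 to 2 G beta, 5 G gamma, 1 to 3 cyclase, 1 to 3 RGS and 3 to 6 phosphodiesterase genes, and moved the members' median between 0.25 and 0.68. The lists then held 3 to 6 cAMP effectors, 1 to 5 anchoring proteins, 0 to 2 cGMP genes, 4 to 11 chaperones, partners, kinases and arrestins and 3 to 4 other effectors. Between BA and AP mice 0 members were called under every alternative run. The members' median lay between 0.14 and 0.42 without a mouse, and the cAMP effectors called between 0 and 1. The cause of these shifts was not tested, beyond the smaller number of mice.

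Equal replicate numbers do not pair the mice in the labels or by their correlations, although in BA vs AP every library correlated best with its own number. With the replicate block, BA vs AV kept 6 calls (Gnal, Gnas, Gng2, Gng3, Gng11 and Pde8a), where 9.83% of all genes were called. By family these were 2 G alpha, 0 G beta, 3 G gamma, 0 cyclase, 0 RGS and 1 phosphodiesterase gene, and the lists held 2 cAMP effectors, 0 anchoring proteins, 0 cGMP genes, 5 chaperones, partners, kinases and arrestins and 2 other effectors. The block gave 0 members in BA vs AP.

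Signs turned for some members that were not called. With each mouse left out in turn, in AV mice Adcy9 ranged from -0.31 to 0.05, Gnb2 from -0.20 to 0.11, Pde6d from -0.54 to 0.01 and Pde9a from -0.28 to 0.83, and in AP mice Gnb2 ranged from -0.20 to 0.23, Gnaq from -0.14 to 0.09, Gnb4 from -0.12 to 0.20, Adcy9 from -0.27 to 0.10, Rgs6 from -0.48 to 0.04, Gna11 from -0.06 to 0.31, Rgs20 from -0.07 to 0.97 and Rgs4 from -0.36 to 0.41. In AP mice the signs of Gng12, Rgs3, Rgs11, Pde4a, Pde6d and Pde12 also turned without at least 1 mouse. Adcy9 also turned to 0.05 with the replicate block in AV mice, and Gnb2 to -0.01 after centring in AP mice.

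With 2 AV mice and unknown depth, small differences in the BA vs AV table cannot be told from spread. In the BA vs AP table the level of 3 reads lay between 4.13 and 5.68, depending on the library.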
